A study of Gallus gallus with 13 samples.

Results

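The RNA of chicken limb cultures carrying HOXD13 wild type (wt) was compared with that of cultures carrying the empty virus. HOXD13 is a homeodomain transcription factor of the distal limb, where it takes part in patterning the digits. The comparison used 2 of the series' 13 samples, 1 RNA library a side. Each Ensembl gene was represented by its transcript of highest mean RPKM (reads scaled to transcript length and library total) over the series' 5 RNA libraries, and 12840 of 16737 genes were kept because they reached 5 RPKM in 1 or both of the compared libraries. The other 3897 genes were not described further.

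Both cultures began as mesenchymal cells of chicken limb buds at Hamburger-Hamilton stage 24, which received virus before plating as dense droplets (micromass cultures) and were harvested after 9 days. The HOXD13 wt culture was infected with RCASBP(A)-3xFLAG-mHoxd13(wt), a replication-competent avian retrovirus with FLAG-tagged mouse Hoxd13, and the control with RCASBP(A)-empty, the same vector without an insert. The remaining 3 RNA libraries came from cultures with the HOXD13 changes Q317K and Q317R or with PITX1, and are given only for their levels. How many embryos or droplets went into a library, and what share of cells carried virus, was not stated in the labels.

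In micromass culture limb mesenchyme condenses, turns on SOX9 and forms nodules of cartilage rich in type II collagen and aggrecan. Some chondrocytes then become hypertrophic, a state marked by type X collagen. Bone morphogenetic proteins (BMPs), transforming growth factors (TGF-betas) and their secreted antagonists act on several of these steps, and HOX factors act in the limb both before and during cartilage formation.

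With 1 library a side there was no replicate check and no p-value, so genes are described as higher or lower in the HOXD13 wt library and none is called changed. The scale was log2 of (HOXD13 wt RPKM + 1) / (empty vector RPKM + 1), on which 2-fold corresponds to 1 or −1, and every statement that a gene was past or within 2-fold refers to it. Folds in the text are ratios of RPKM without the added 1, and brackets give 95% exact intervals on the read numbers, which cover counting error only. Whole cultures were lysed, so fewer cells of a type and less RNA per cell cannot be told apart in any value below. Gene lists were chosen with earlier results of these data known. Their shares beside those of all genes are therefore descriptions and not tests.

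Of the 12840 genes, 293 were at least 2-fold higher in HOXD13 wt, or 2.28%, and 336 lay at least 2-fold below the control, or 2.62%. The other 12211 lay within 2-fold, and 82.2% lay within 1.5-fold. The median log2 ratio was −0.03, with quartiles of −0.33 and 0.26, so more genes lay below 0 than above it. The range ran from −3.69 for EPYC, a cartilage proteoglycan, to 4.34 for CHGB, a protein of secretory granules. At least 4-fold differences were found for 48 genes on the higher and 36 on the lower side. The genes on the higher side had median levels of 39.2 RPKM in HOXD13 wt and 11.6 in the empty vector, and those on the lower side 18.1 and 49.8. Just past the 2-fold limit stood TOP2B, a DNA topoisomerase, at 22.5 against 10.7 RPKM, and just short of it ARL15, a small GTPase, at 14.9 against 7.00. On the lower side ZNF469 was just past it at 24.6 against 50.3 RPKM, and GPR56, an adhesion receptor, just short at 4.44 against 9.84.

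**Figure D1:**
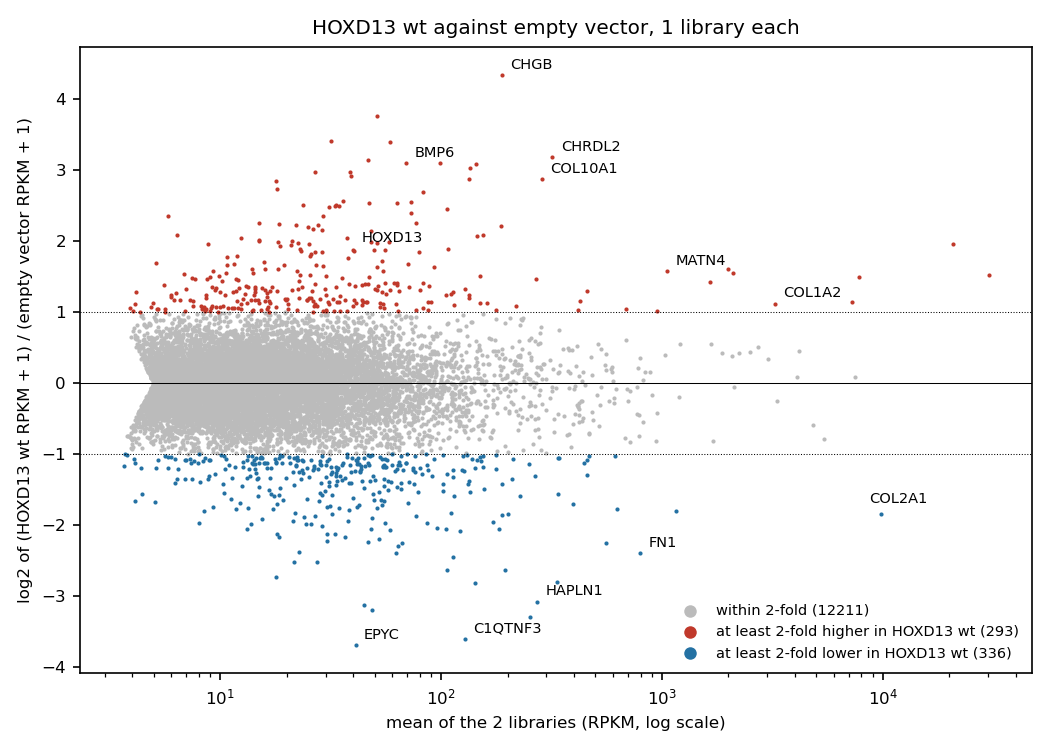
Each point is 1 of the 12840 kept genes; the horizontal axis is the mean RPKM of the 2 libraries on a log scale and the vertical axis the log2 ratio of HOXD13 wt to empty vector (RPKM + 1). The 293 genes at least 2-fold higher are red and the 336 at least 2-fold lower are blue, with CHGB at 4.34 and EPYC at −3.69 as the extremes.

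Library totals were 14931544 reads for HOXD13 wt and 15274704 for the empty vector. Large ratios on the log2 (RPKM + 1) scale were more frequent among abundant genes. At a mean of 50 RPKM or more, 5.51% of 1471 genes lay past 2-fold on the higher side and 8.02% on the lower. Of the 4239 genes under 10 RPKM, 1.20% and 0.92% did. The added 1 draws ratios of low genes towards 0, which adds to this contrast. With 0.1 added instead, the counts over all kept genes were 343 higher and 400 lower. The 10 genes with the most reads took 11.9% of the reads in HOXD13 wt and 8.95% in the empty vector. Among all kept genes the empty vector library was the highest of the 5 RNA libraries for 30.1% and the lowest for 26.0%, while HOXD13 wt was the highest for 18.97% and the lowest for 19.7%. Values in the other libraries are therefore given beside the results.

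The HOXD13 row itself stood at 63.4 RPKM, from 318 reads, in HOXD13 wt and at 16.6 RPKM, from 85 reads, in the control, which is 3.83-fold (3.00 to 4.92). It read 36.8 RPKM in Q317K, 53.7 in Q317R and 13.1 in PITX1. The 3 libraries labelled with a HOXD13 form were thus above the other 2, as their labels say. The row is chicken and the virus carries the mouse gene, so the ratio does not measure the dose of HOXD13.

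Cartilage matrix genes were lower in HOXD13 wt, both in number and in summed level. Of 25 listed genes 17 were kept, and 12 of them, or 70.6%, were at least 2-fold lower against 2.62% of all genes. On the higher side was 1, or 5.88% against 2.28%. The list median was −1.84, against −0.03 over all genes, and the summed level was 7945 RPKM against 21932. In the other libraries the sum was 3413 RPKM in Q317K, 18140 in Q317R and 5815 in PITX1, so HOXD13 wt was not the lowest. COL2A1, the main cartilage collagen, had the largest part in the sums of the compared libraries, at 4279 against 15370 RPKM, 3.59-fold lower (3.57 to 3.62). ACAN, the aggregating proteoglycan aggrecan, stood at 280.7 against 969 RPKM. HAPLN1, which links aggrecan to hyaluronan, stood at 56.5 against 487. These 3 partners of the cartilage matrix were thus all lower, HAPLN1 by the largest factor, 8.61 (8.18 to 9.07).

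The small and secreted cartilage proteins had the most extreme ratios. EPYC, a small leucine-rich proteoglycan of growth cartilage, was at 5.03 against 77.1 RPKM. The secreted factors C1QTNF3 and CYTL1 were at 18.4 against 237 RPKM and at 45.7 against 460, which is 12.9-fold (11.5 to 14.4) and 10.1-fold (9.32 to 10.9) lower. The lectin CLEC3A was at 8.75 against 89.1. Chondromodulin (CNMD), an inhibitor of blood vessel growth made by cartilage, stood at 192 against 922 RPKM, and the type IX collagen chains COL9A1 and COL9A3 at 186 against 608 and at 403 against 826. COL9A3 came to −0.998, short of 2-fold, when libraries were rescaled by a trimmed mean of the ratios.

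The matrilins, adaptor proteins of the matrix, were not alike. MATN1 was at 34.6 against 250.1 RPKM and MATN3 at 3.95 against 31.9, whereas MATN4 was at 1586 against 531, 2.99-fold higher (2.93 to 3.04). MATN4 was the only kept member of the list on the higher side. It read 488 RPKM in Q317K, 2489 in Q317R and 542 in PITX1. COMP, the cartilage oligomeric matrix protein, was at 560 against 649 RPKM, and CHAD, PRG4 and FRZB also lay within 2-fold. For 12 of the 17 genes the empty vector was the highest of the 5 libraries, against 30.1% of all kept genes. COL2A1 read 1983 RPKM in Q317K, 11296 in Q317R and 3437 in PITX1, so HOXD13 wt lay between PITX1 and Q317R.

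Regulators of the cartilage program had ratios nearer to 0 than the matrix genes. None of the 10 kept chondrogenic and osteogenic transcription factors was past 2-fold on the lower side of the log2 (RPKM + 1) scale. The share over all genes was 2.62%, and with 10 genes a count of 0 cannot be told from it. The list median was −0.23. MEF2C, at 4.23 against 8.91 RPKM, came nearest, with 2.11-fold (1.66 to 2.68) without the added 1. SOX9, which drives cartilage genes, stood at 259.7 against 338 RPKM, its relative SOX8 at 258 against 269, and SOX6 at 20.8 against 22.8. Only ZNF521, a zinc-finger protein known from cartilage and bone, was past 2-fold, at 120.7 against 44.8 RPKM. That is 1 of 10, or 10% against 2.28% of all genes. Enzymes that build and sulfate proteoglycan chains gave 4 lower of 27 kept, or 14.8% against 2.62% of all genes, and 0 higher, with a median of −0.20. The 4 were PAPSS2, which makes the sulfate donor and stood at 70.3 against 296 RPKM, the chondroitin sulfotransferases CHST11 (26.4 against 78.6) and CHST3 (55.0 against 149), and UGDH, which makes a sugar precursor (136 against 287). PAPSS1, the other enzyme that makes the donor, was at 199 against 189 RPKM.

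The list for hypertrophic cartilage and mineralisation was split. It had 16 kept genes and a median of −0.62. Past 2-fold were 3 on the higher side, or 18.8% against 2.28% of all genes, and 5 on the lower, or 31.2% against 2.62%. The list was chosen with earlier results of these data known, so these shares are not a test. COL10A1, the collagen of hypertrophic cartilage, was at 502 against 67.7 RPKM, which is 7.42-fold (7.09 to 7.77). It read 15.0 in Q317K, 40.3 in Q317R and 19.7 in PITX1. FGFBP2, a heparin-binding carrier protein, was at 59.4 against 9.68 RPKM and the annexin ANXA8 at 52.8 against 18.2. HOXD13 wt was the highest of the 5 libraries for each of these 3.

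Genes of mineral deposition were among the 5 on the lower side. IBSP, bone sialoprotein, was at 10.96 against 42.8 RPKM, and ALPL, the phosphatase of mineralising matrix, at 61.7 against 151. The channel protein PANX3 was at 19.3 against 66.0, IFITM5, a membrane protein of osteoblasts, at 19.9 against 47.8, and IHH, the hedgehog ligand of prehypertrophic cartilage, at 12.5 against 33.8. ALPL and IHH received their symbols after their values were known. Within 2-fold lay the collagenase MMP13 (15.7 against 19.8 RPKM), the bone phosphoprotein SPP1 (398 against 573) and PTHLH, a ligand that delays hypertrophy (5.42 against 6.53). COL10A1 was therefore not accompanied by the list's other kept members at a similar ratio, apart from FGFBP2.

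**Figure D2:**
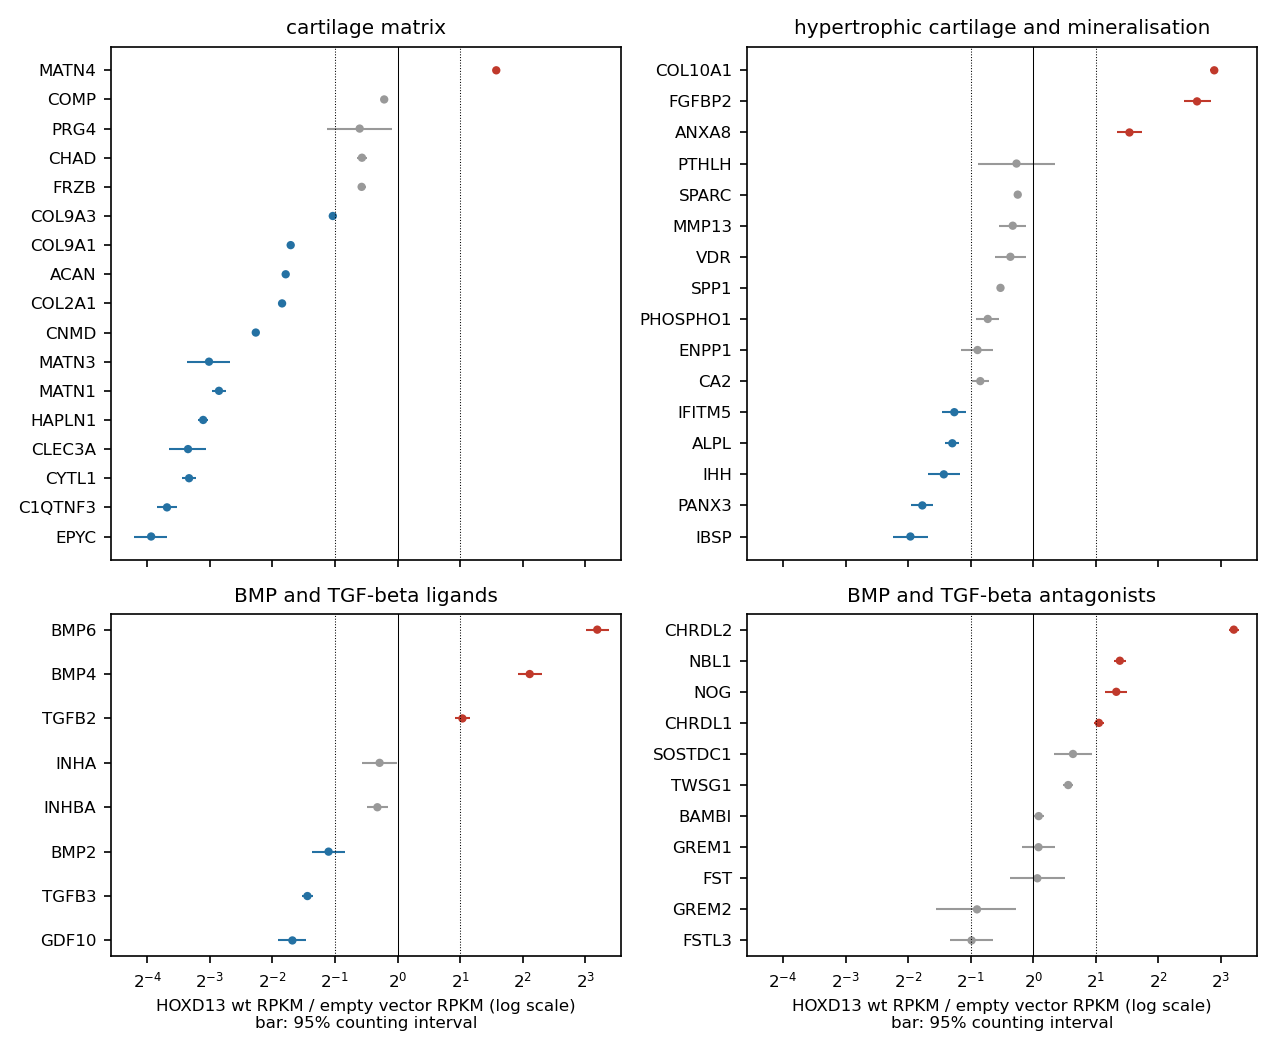
Ratios of HOXD13 wt RPKM to empty vector RPKM (log scale) for the kept genes of 4 lists, with 95% counting intervals as bars; red and blue mark genes at least 2-fold higher and lower on the log2 (RPKM + 1) scale. Cartilage matrix genes lie left of 1 except MATN4, COL10A1 stands at 7.42, and the antagonists CHRDL2, NBL1, NOG and CHRDL1 lie to the right.

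BMP and TGF-beta ligands were divided between both sides. The 8 kept ligands had a median of −0.29. Past 2-fold lay 3 on each side, or 37.5% each against 2.28% and 2.62% of all genes. BMP6 was at 125 against 13.7 RPKM, 9.14-fold higher (8.08 to 10.4), and read 14.7 in Q317K, 51.9 in Q317R and 6.59 in PITX1. BMP4 was at 60.8 against 14.1 RPKM, 4.33-fold higher (3.79 to 4.95). BMP2 stood on the other side at 13.0 against 27.9. Among the TGF-betas, TGFB2 was at 103 against 50.3 RPKM and TGFB3 at 102 against 276, so that both had similar levels in HOXD13 wt and unlike levels in the control. GDF10, a further member of the superfamily, was at 8.77 against 28.1 RPKM.

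Secreted antagonists of BMPs were the signalling list with the highest median, 0.55. Past 2-fold were 4 of 11 kept, or 36.4% against 2.28% of all genes, each on the higher side. CHRDL2, a chordin-like protein, was at 576 against 62.5 RPKM, 9.22-fold higher (8.74 to 9.73), and at 7.47 in Q317K, 89.7 in Q317R and 9.88 in PITX1. NOG, noggin, was at 92.1 against 36.7 RPKM. NBL1 was at 128 against 49.1 and CHRDL1 at 50.4 against 24.4. The antagonists GREM1 (18.4 against 17.4) and FST (5.23 against 5.01) lay close to equal. Of 12 kept receptors and mediators 1 was higher and 1 lower, or 8.33% each against 2.28% and 2.62% of all genes. ACVR2B, an activin receptor, was higher at 15.1 against 4.65 RPKM. LTBP2, a matrix protein related to the binders of latent TGF-beta, was lower at 22.1 against 49.8. SMAD6, an inhibitory mediator, was at 53.5 against 47.9 RPKM.

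Other signalling lists held few genes past 2-fold. Among 19 kept WNT ligands and receptors 1 was lower, the receptor FZD1 at 67.1 against 137 RPKM, or 5.26% against 2.62% of all genes, and the median was 0.03. Among 12 WNT inhibitors and targets 1 was higher and 1 lower, or 8.33% each against 2.28% and 2.62% of all genes. WIF1, a secreted inhibitor, was at 40.6 against 9.70 RPKM, 4.18-fold higher (3.62 to 4.85), while DKK3 was at 39.5 against 80.3. Both FZD1 and DKK3 were barely past 2-fold and fell short of it, at −0.99 and −0.98, when ratios were centred on the median. In the FGF list of 17, 1 gene lay past 2-fold on each side, or 5.88% each against 2.28% and 2.62%. The receptor FGFR3, which restrains chondrocyte growth, was at 73.8 against 194 RPKM, whereas FGFR1 was at 534 against 416 and FGFR2 at 48.7 against 39.8. The list's only member on the higher side was FGFBP2.

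In the hedgehog list of 12, 2 genes were at least 2-fold lower, or 16.7% against 2.62% of all genes, the ligand IHH among them. The response genes PTCH1 (17.2 against 25.8 RPKM) and GLI1 (21.8 against 35.6) also read less in HOXD13 wt, within 2-fold. GAS1, a hedgehog co-receptor, was the 1 member on the higher side, or 8.33% against 2.28%, at 207 against 94.0 RPKM. The list median was −0.21, with 7 of 12 below 0, a count that cannot be told from an even split. In the retinoic acid list of 12, 1 gene was past 2-fold on each side, or 8.33% each against 2.28% and 2.62%. CYP26B1, which degrades retinoic acid and is needed in the limb, was at 78.2 against 24.5 RPKM and the receptor RXRG at 14.6 against 32.3. CYP26B1 read 30.3 RPKM in Q317K, 91.1 in Q317R and 97.5 in PITX1. In the IGF list of 11, 2 were higher, or 18.2% against 2.28% of all genes, and 0 lower. IGFBP7, a secreted binding protein, was at 252 against 58.6 RPKM, which is 4.31-fold (4.02 to 4.62). The protease PAPPA was at 35.5 against 17.2. None of 10 kept Notch genes and none of 7 kept Eph receptors and ephrins reached 2-fold. Lists this small cannot be told from the 2.28% and 2.62% of all genes. The Notch list had a median of −0.43, against −0.03 over all genes, with 8 of 10 below 0. HOXD13 wt was the lowest of the 5 libraries for 5 of these 10, against 19.7% of all kept genes. EPHB1 came nearest in the Eph and ephrin list at 179 against 97.6 RPKM.

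Among 25 kept genes of condensation and adhesion 3 were lower, or 12.0%, and 1 higher, or 4%, against 2.62% and 2.28% of all genes, and the median was 0.07. FN1, fibronectin, which marks condensing mesenchyme, was at 254 against 1344 RPKM, 5.28-fold lower (5.22 to 5.35), and varied widely elsewhere, with 1371 in Q317K, 430.2 in Q317R and 3221 in PITX1. THBS2, a thrombospondin, was at 28.9 against 81.0 RPKM and the syndecan SDC3 at 222 against 463. The cadherin CDH4 was at 57.0 against 9.24, while CDH2, the cadherin of condensations, was at 12.7 against 25.02 and CDH11 at 134.7 against 97.0. NCAM1 and TNC, further condensation genes, were at 11.5 against 9.93 and 80.0 against 136 RPKM.

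Fibrous matrix genes were divided as well. Of 26 kept tendon and fibroblast genes 4 were higher and 4 lower, or 15.4% each against 2.28% and 2.62% of all genes, with a median of −0.28. COL1A2, a chain of type I collagen, was at 4433 against 2044 RPKM, 2.17-fold higher (2.16 to 2.18), and COL5A2 at 588 against 264. The fibulins FBLN1 and FBLN5 were at 63.1 against 28.1 and 42.8 against 17.5. On the lower side were LOXL3 and LOXL4, enzymes that cross-link collagen, at 83.2 against 587 and 10.9 against 29.0, elastin (ELN) at 117 against 302, and the growth factor receptor PDGFRB at 95.9 against 207. The proteoglycan DCN was at 286 against 266 RPKM and COL3A1 at 92.4 against 121.

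Of the 26 kept collagens 19 lay within 2-fold, 20 had a ratio below 0, and the median was −0.35 against −0.03 over all genes. The 4 on the higher side, or 15.4% against 2.28% of all genes, were COL10A1, COL5A2, COL1A2 and COL8A1 (557 against 273 RPKM). The 3 on the lower side, or 11.5% against 2.62%, were the type II and IX chains COL2A1, COL9A1 and COL9A3. COL2A1 exceeded COL1A2 in the empty vector, at 15370 against 2044 RPKM, and the levels were close in HOXD13 wt, at 4279 and 4433. That comparison depends on the transcript lengths used, 1379 bases for COL2A1 and 4737 for COL1A2. Reads of COL2A1 and COL1A2 were 323757 and 147861 in the empty vector, and 88102 and 313538 in HOXD13 wt. Matrix proteases and inhibitors gave 4 higher and 4 lower of 32, or 12.5% each against 2.28% and 2.62% of all genes, and 21 had a ratio below 0. The inhibitors SERPINE2 (649.6 against 264 RPKM), SERPINI1 (48.3 against 5.27) and RECK (40.8 against 19.4) and the protease MMP17 (61.2 against 27.3) were higher. The collagenase MMP1 was at 2.66 against 13.4, the inhibitor TIMP4 at 23.9 against 64.0, SERPINF1 at 26.0 against 69.4 and the procollagen protease ADAMTS2 at 34.2 against 78.9. MMP1 was at 2.35 to 2.70 RPKM in the 3 other factor libraries too, so its level was high in the empty vector alone.

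CHGB had the largest ratio of all genes. Chromogranin B is a granin stored in the secretory granules of neuroendocrine cells, and it stood at 359 against 16.8 RPKM, 21.3-fold higher (19.7 to 23.2), from 12992 and 623 reads. CPE, carboxypeptidase E, which trims prohormones in the same granules, was at 236 against 31.2 RPKM, 7.56-fold higher (7.07 to 8.09). These 2 were 10% of the 20 kept genes of regulated secretion, against 2.28% of all genes. No other member of the list reached 2-fold, and the list median was −0.12. CHGA was at 8.07 against 10.2 RPKM, SCG2 at 10.5 against 8.98 and SCG3 at 5.54 against 5.72. CHGB read 49.0 RPKM in Q317K, 25.1 in Q317R and 12.7 in PITX1.

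A similar isolation was seen for sterol metabolism. AKR1D1, a steroid reductase of bile acid synthesis, was at 258 against 29.5 RPKM, 8.74-fold higher (8.01 to 9.56). SCP2, a sterol carrier of peroxisomes, was at 241 against 28.6, 8.42-fold higher (7.90 to 8.98). These 2 were 11.8% of the 17 kept genes of cholesterol, bile acid and peroxisome metabolism, against 2.28% of all genes. The other 15 lay within 2-fold, and HMGCS1, of cholesterol synthesis, was at 54.5 against 88.7 RPKM. Solute carriers gave 8 higher of 135, or 5.93% against 2.28% of all genes, and 5 lower, or 3.70%, near the 2.62% of all genes. Their median was −0.18, however, with 95 of 135 below 0. The empty vector was the highest of the 5 libraries for 64 of them, or 47.4% against 30.1% of all kept genes. SLC5A3, a myo-inositol transporter, was at 80.9 against 13.0 RPKM and SLC28A2, a nucleoside transporter, at 48.0 against 9.97. SLC16A5, of the monocarboxylate transporter family, was the lowest by ratio at 8.98 against 34.6. SLC5A3 lies beside MRPS6 (46.4 against 9.10 RPKM), and the genes may overlap, so their reads may not be separable. None of 21 kept genes of glycolysis and hypoxia reached 2-fold, with LDHA at 605 against 591 RPKM. With 21 genes a count of 0 cannot be told from the 2.28% and 2.62% of all genes.

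The 20 named genes of largest positive ratio included others of secretion, matrix and adhesion. ST6GAL2, a sialyltransferase, was at 59.1 against 4.66 RPKM, and NELL2, a secreted protein with EGF repeats, at 84.5 against 8.68. TMTC1, an enzyme that adds mannose to cadherins, was at 179 against 19.9, and RGS5, a regulator of G-protein signalling known from pericytes, at 69.5 against 8.35. The matrix proteins PODNL1 and MXRA5 were at 144 against 21.4 and 125 against 20.5 RPKM. Further members were LRRC3B (32.3 against 3.61), ITM2C (62.4 against 9.66) and C8orf22 (40.9 against 6.38).

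HOXD13 wt was the highest of the 5 libraries for 17 of these 20. The exceptions were NELL2, with 136 RPKM in Q317K and 191 in Q317R, SERPINI1, with 74.4 in Q317R, and C8orf22, with 64.0 in Q317K. RGS5 lay between 6.31 and 8.35 RPKM in all 4 other libraries. Over the whole higher side, HOXD13 wt was the highest library for 245 of 293 genes, a share partly fixed by choosing genes on the ratio to the empty vector.

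Among the 20 of largest negative ratio were, beside the cartilage genes, HSP25, a small heat-shock protein, at 52.7 against 335 RPKM, and G0S2, an inhibitor of fat breakdown, at 7.37 against 47.4. The nuclear receptor NR4A3 was at 19.1 against 105 RPKM, the matrix protein SMOC2 at 10.0 against 50.7, and CHADL, a relative of chondroadherin, at 22.5 against 111. CYP1B1, a monooxygenase, was at 15.6 against 77.4 and NPTX2, a pentraxin, at 10.7 against 50.1. TMEM61 (28.6 against 183), NRIP3 (8.39 against 81.2) and KCTD12 (22.0 against 95.8) completed the group. The empty vector was the highest of the 5 libraries for 16 of the 20, with NR4A3, FN1, SMOC2 and KCTD12 as exceptions. HSP25 is an example, with 40.7 to 68.1 RPKM in the 4 factor libraries. For 247 of the 336 genes on the lower side the empty vector was the highest library, and all 4 factor libraries are set against that same control, so this order also follows its own level.

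**Figure D3:**
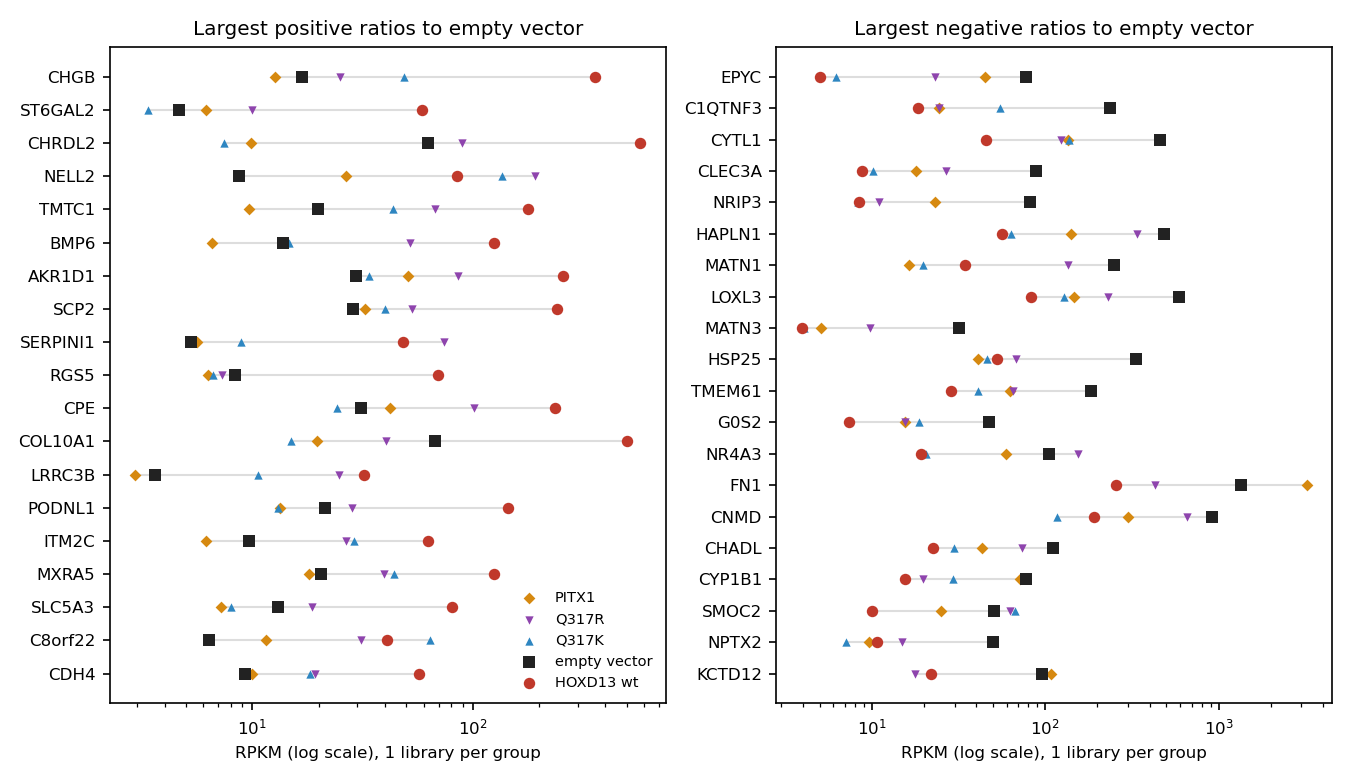
RPKM (log scale) in the 5 RNA libraries, 1 point per library, for 19 of the 20 named genes of largest positive ratio of HOXD13 wt to empty vector and the 20 of largest negative ratio. HOXD13 wt (red circles) is the highest library for 16 of the 19 genes on the left, and the empty vector (black squares) for 16 of the 20 on the right.

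Most HOX genes other than HOXD13 read lower in HOXD13 wt, by small factors. The 25 kept include the HOXD13 row, at 1.87 on the log2 scale. Of the 25, 23 had a ratio below 0 on that scale and the median was −0.45, and 4 were at least 2-fold lower, or 16% against 2.62% of all genes. HOXA10 was at 19.4 against 52.0 RPKM, HOXD11 at 9.13 against 24.6, HOXD12 at 11.1 against 24.5 and HOXA11 at 9.66 against 20.9. HOXA13, the closest relative of HOXD13 in the limb, was at 22.6 against 39.7. The 4 genes past 2-fold are all HOX genes of groups 10 to 12 in clusters A and D, which pattern the limb. Reads were few, 45 against 124 for HOXD11.

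The empty vector library was the highest of the 5 for 22 of the 25 HOX genes, against 30.1% of all kept genes. HOXD11 read 9.69 RPKM in Q317K, 8.48 in Q317R and 9.97 in PITX1. Markers of cell types not named in the labels, at similarly low levels, also had medians below 0. Skeletal muscle markers had −0.49 with 9 of 10 below 0, and epithelial markers −0.31 with 7 of 11. Blood and macrophage markers had −0.53 with 5 of 8. Counts of 7 of 11 and 5 of 8 cannot be told from an even split. Low-level genes as a whole lay nearer to 0. The median was −0.07 for the 4239 kept genes with a mean under 10 RPKM and 0.002 for the 7130 at 10 to 50 RPKM. The empty vector was the highest library for 3 of the 10 skeletal muscle, 6 of the 11 epithelial and 3 of the 8 blood and macrophage markers. The muscle factor MYOG, for example, was at 5.67 against 8.59 RPKM. What part the level of the control library has in the HOX ratios was not tested.

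**Figure D4:**
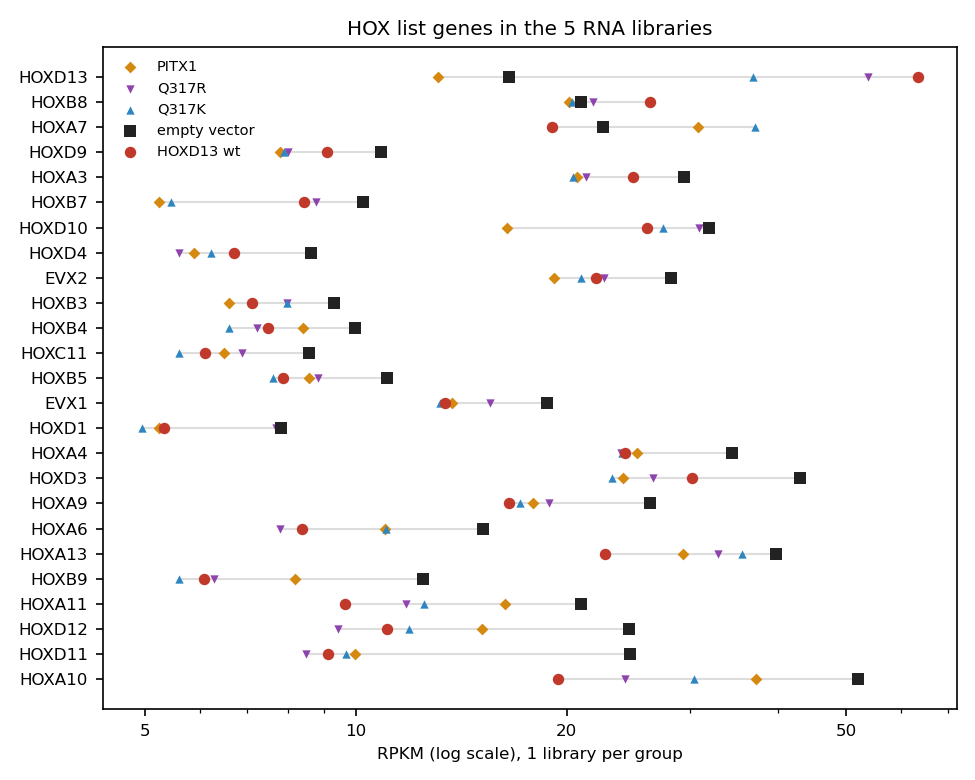
RPKM (log scale) of the 25 kept genes of the HOX list in the 5 RNA libraries, ordered by the ratio of HOXD13 wt to empty vector. The empty vector (black squares) is the highest library for 22 genes, and HOXD13 wt (red circles) for HOXD13 and HOXB8.

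Of 21 kept limb patterning factors, 2 were higher, or 9.52%, and 3 lower, or 14.3%, against 2.28% and 2.62% of all genes, with a median of −0.30. TBX5, a factor of the forelimb, was at 17.6 against 49.4 RPKM, 2.81-fold lower (2.55 to 3.10). PITX1, a factor of the hindlimb, was at 28.9 against 64.5, but its longest transcript lay within 2-fold at −0.85. TBX4, likewise of the hindlimb, was at 36.7 against 34.1. The forelimb and hindlimb factors thus did not separate. MAB21L2 was at 44.3 against 107.5 RPKM, and the homeobox gene EMX2 and the odd-skipped factor OSR2 were higher, at 39.8 against 17.03 and 46.9 against 22.8. PRRX1, a general factor of limb mesenchyme, was at 75.5 against 84.6.

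Of 10 kept smooth muscle and pericyte markers 3 were lower, or 30% against 2.62% of all genes, and 1 was higher, or 10% against 2.28%. The remaining 6 lay within 2-fold, and the list had a median of −0.31 with 4 of the 10 above 0. The 3 lower markers were contractile genes. TAGLN was at 86.4 against 315 RPKM, ACTG2 at 81.6 against 233 and ACTA2 at 117 against 237. ACTA2 was short of 2-fold at −0.98 when ratios were centred on the median. The list's summed level was 469 against 899 RPKM, which rests largely on these 3 genes, and RGS5 was the member on the higher side. Skeletal muscle markers summed to 91.8 against 131 RPKM, blood and macrophage markers to 88.3 against 123, and epithelial markers to 116 against 144. Adipocyte markers summed to 79.3 against 104. Neural and Schwann markers summed to 127 against 123 and endothelial markers to 227 against 186. Their medians were −0.23 with 8 of 12 below 0 and −0.33 with 6 of 9, so most members did not share the larger sums. In these lists ERG, a transcription factor also known from cartilage, was higher at 120.7 against 54.3 RPKM, and so were MAP2 (24.7 against 6.87) and GAP43 (17.2 against 6.42), which neurons make; with its longest transcript MAP2 came to 1.07 on the log2 scale in place of 1.71. Defining genes of the listed cell types remained near the floor: PECAM1 was at 6.00 against 3.28, SOX10 at 8.07 against 10.2, CDH1 at 8.39 against 12.6 and MYOD1 at 5.56 against 6.85. None of the 21998 deposited rows was at 0 in any library. Whether rows with a 0 were left out is not stated, so a low level alone does not show that a marker was expressed.

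Some broad groups differed slightly and mostly in 1 direction. Over all kept genes the median was −0.03, with quartiles of −0.33 and 0.26. Of 19 kept cell division genes 18 had a ratio above 0, with a median of 0.47 and none at 2-fold; MKI67 was at 14.1 against 8.05 RPKM and CDK1 at 43.9 against 28.0. For 17 of the 19 the empty vector was the lowest of the 5 libraries, against 26.0% of all kept genes. Ribosomal protein genes had a median of 0.25, with 46 of 52 above 0, and for 46 of 52 the empty vector was again the lowest library. A list of 13 named mitochondrially encoded genes, added after the table had been seen, had a median of 0.43 with all above 0. Rows without a printable name are not in it. Within the list MT-ND6 alone was past 2-fold, at 924 against 448 RPKM, and the empty vector was the lowest library for 10. For most genes of these 3 lists the empty vector library thus stood below all 4 factor libraries, and its part in the ratios was not tested.

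Stress genes were lower in a few strong cases. Of 21 kept genes of endoplasmic reticulum stress and heat shock 4 were lower, or 19.05% against 2.62% of all genes, and 0 higher, with a median of −0.10: HSP25, CREB3L1 (40.1 against 171 RPKM), a transcription factor needed for collagen secretion by osteoblasts, the autophagy receptor SQSTM1 (56.2 against 172), and ATF3 (38.8 against 104), a stress-induced factor. The chaperone HSPA5 was at 515 against 922, within 2-fold. All 13 kept genes of the interferon response list had a ratio below 0, with a median of −0.49 against −0.03 over all genes. HOXD13 wt was the lowest of the 5 libraries for 10 of them, against 19.7% of all kept genes. Past 2-fold were 2, or 15.4% against 2.62% of all genes. They were CMPK2, at 8.54 against 20.1 RPKM, and IFITM5, described above as a membrane protein of osteoblasts. The 15.4% therefore does not rest on interferon genes alone. MX1 was at 4.90 against 5.13.

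**Figure D5:**
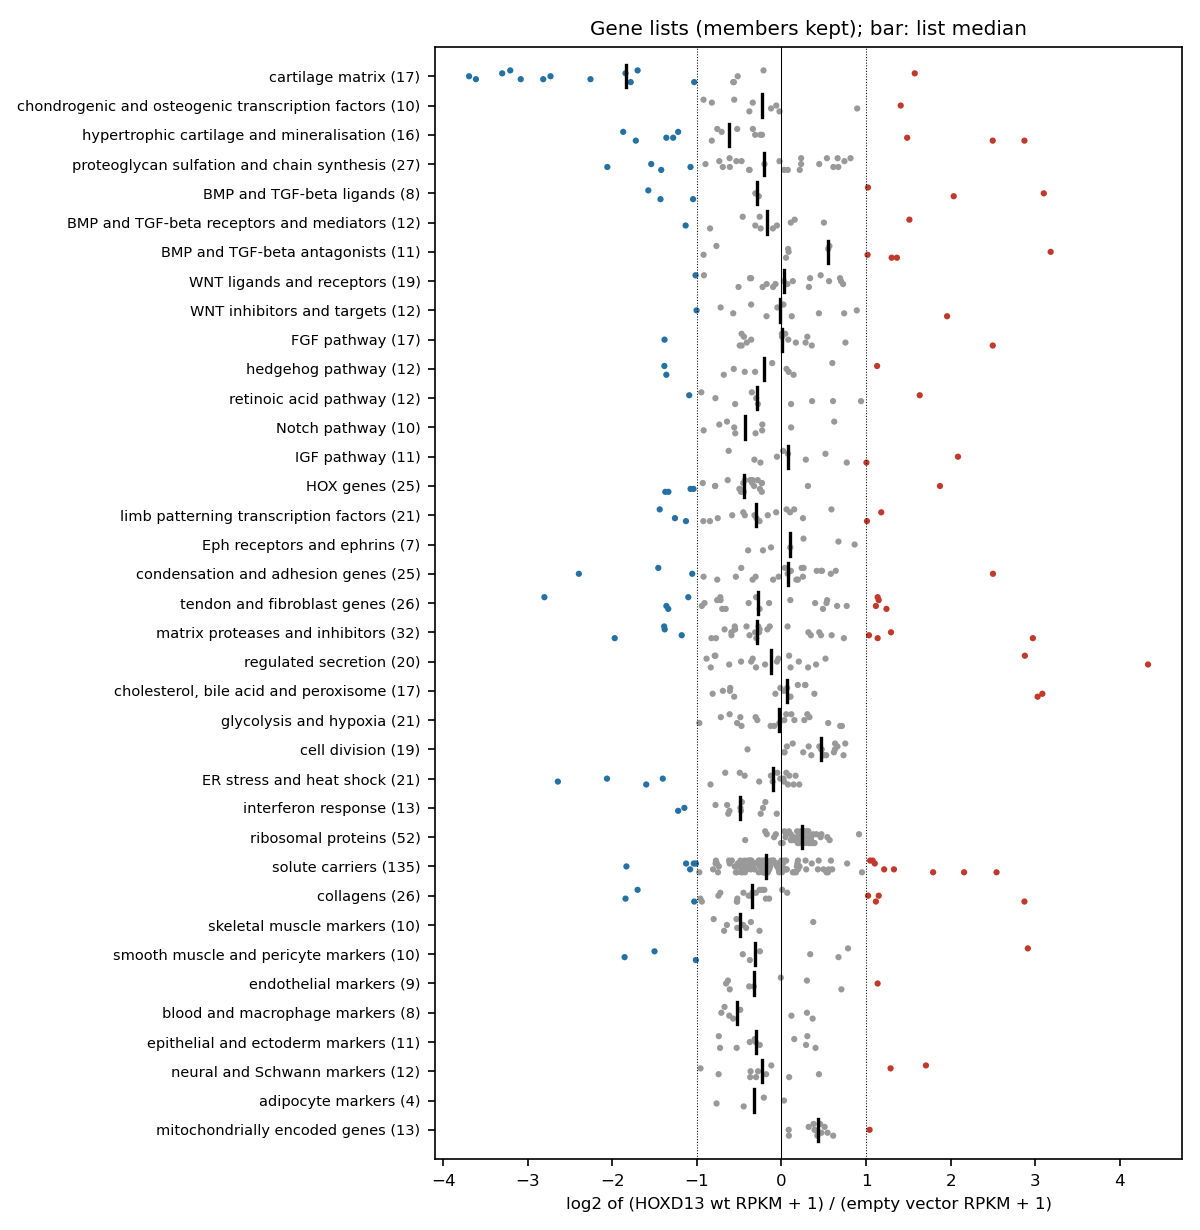
Log2 ratios of HOXD13 wt to empty vector (RPKM + 1) for the kept members of 37 gene lists, 1 point per gene, with the number kept in brackets and the list median as a black bar; dotted lines mark 2-fold, and some genes are in several lists. The cartilage matrix median of −1.84 is the lowest, and the BMP and TGF-beta antagonists have the highest, 0.55.

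The named genes of highest level were largely shared by both libraries. MT-CO1, a mitochondrial subunit of respiration, was at 7717 against 7275 RPKM, the glycolytic enzyme GAPDH at 3366 against 2676 and SPARC, a collagen-binding protein, at 3024 against 3594. The non-coding RNA 7SK, which regulates transcription elongation, was at 3133 against 1065 RPKM and read 2520 in Q317K, 2801 in Q317R and 4478 in PITX1. It carries no poly(A) tail in its usual form, and the libraries were made from oligo-dT selected RNA.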

How the data were processed

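RNA was selected on oligo-dT and read as 115 bp single reads, per the labels' protocols. Per the file headers, the values the authors deposited are RPKM, 1 row for each of 21998 Ensembl transcripts. Aligner, counter, strand setting and gene models: not given in the sources used here. Hence overlapping, antisense and near-identical genes may share reads. The column of the empty vector is headed "leer", German for empty. Whole reads, lengths and totals were recovered from ratios between columns (100% of rows whole within 0.001), and rows summed to 98.8% to 98.9% of the totals. Recovery and calling were tested on simulated data. A row's recovered reads and length may be underestimated in proportion, which widens its interval and leaves its RPKM as deposited.

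Of the 12840 genes 7388 had a printable name; 189 UniProt-style labels were given symbols by hand after the data were seen, and 59 symbols fall on more than 1 gene. Where a symbol did so, the row of highest mean level was used. Named are HOXD13, the 20 largest ratios on each side, members of 37 lists, the 10 highest levels, and genes at the 2-fold limit; neighbouring genes and others outside these were chosen after their values were seen. A few genes that this rule names are not reported here. Members and lists were chosen with earlier results of these data known. Many list genes carry accession labels and were not matched: lists give only the genes found. Alternatives changed the pseudocount, filter, transcript, scaling and fold. Python 3.11.15, numpy 2.4.6, scipy 1.17.1, pandas 2.3.3 and matplotlib 3.10.9 were used.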

Additional observations from a re-analysis of the deposited data

How the results depend on the processing

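The counts of 293 genes higher and 336 lower moved with the choices of size. With a pseudocount of 5 they were 191 and 227, because low genes are then drawn towards 0. At 1.5-fold they were 1026 and 1262, and at 3-fold 90 and 89. The other 8 settings gave 214 to 343 higher and 272 to 400 lower. Centring on the median (a shift of −0.03) gave 310 and 316, so the share on the higher side went from 46.6% to 49.5%. None of 127 named genes past 2-fold changed direction with the longest or with summed transcripts. Many of them, such as CHGB at 4.34, had the same value under both settings, which therefore could not test their direction. A pseudocount or filter cannot change a direction, and the scalings shifted ratios by only −0.03, so those settings could not test direction either. A floor of 20 RPKM left 118 of the 127. Of the 127 genes, 22 fell under 2-fold at a pseudocount of 5. With the longest transcript 2 did (PITX1 and SLC4A4), and with summed transcripts 1 (SLC25A25). Centring took 4 under it (FZD1, DKK3, SLC7A3 and ACTA2) and the trimmed mean 5 (these 4 and COL9A3). No paired analysis was possible because each group has 1 library. For the same reason no value could be recomputed without a replicate. Differences between cultures of 1 group, and so the reach of any ratio beyond these libraries, cannot be read from these data.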

Other observations

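Several rows without a printable gene name were among the most abundant and were higher in HOXD13 wt. ENSGALG00000021740 stood at 44704 against 15599 RPKM and ENSGALG00000021752 at 33120 against 8503. They read 20806 and 13196 RPKM in Q317K, 22055 and 16677 in Q317R, and 21383 and 14826 in PITX1, so HOXD13 wt was the highest and the empty vector the lowest library for both. Further such rows were ENSGALG00000018386 at 11499 against 4101 RPKM and ENSGALG00000018384 at 9965 against 4526. RPKM is a share of a library's reads, and a larger share for these rows leaves less for all others.

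Some genes past 2-fold lie beside each other, in and outside the lists. EGFR, the epidermal growth factor receptor, was at 19.4 against 6.93 RPKM, and its neighbour LANCL2 was higher too, at 47.1 against 20.8. The ETS factors ERG and ETS2, which lie beside each other, were at 120.7 against 54.3 and 186 against 80.5. Opposite directions were seen for the adjacent metalloproteinases MMP3 (24.6 against 7.37) and MMP1 (2.66 against 13.4). Of 2774 pairs of neighbouring named genes, in the gene order of the GRCg7b annotation, 20 had both members past 2-fold. In 8 both were higher, in 7 both lower and in 5 opposite. Of all genes 2.28% were past 2-fold on the higher side and 2.62% on the lower. Whether neighbours were past 2-fold together more often than these shares give was not tested. The pairs named here were chosen after their values were seen. NT5DC1 (21.0 against 8.81 RPKM) adjoins COL10A1, and the genes may overlap, so its ratio is uncertain.

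Of 2501 genes with more than 1 kept transcript, 0 had transcripts at least 2-fold apart on both sides. Of the 147 among the 2-fold genes, 113 had all transcripts past 2-fold and 3 had a transcript of the opposite sign.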
